A study of Rattus norvegicus with 24 samples.

Results

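Expression of 10 circadian clock genes, Per1, Per2, Per3, Cry1, Clock, Npas2, Dbp, Tef, Nr1d1 and Nr1d2, was followed in the nasal lining and in circulating white blood cells of rats that had inhaled formaldehyde. The genes were taken as a list of known clock components, and each was represented by 1 probe set, so that 10 of the 29214 probe sets on the array, and 10 of the 14506 genes with a name, were members. No cut on their measured values chose them, but earlier results of these data were known when the list was made. All 10 lay above the lower limit of expression used for testing in both tissues. The comparisons asked whether exposed and control arrays differed in clock genes, and whether they did so as arrays of different times of day would.

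The clock of mammalian cells is a loop of transcription factors. CLOCK, or its relative NPAS2, pairs with BMAL1 and switches on genes with E-box elements, among them the Per and Cry genes, whose products shut the pair off, and Nr1d1 and Nr1d2, whose products (REV-ERB alpha and beta) repress Bmal1, Npas2, Clock and Cry1 through RRE elements. Dbp and Tef encode factors that act on D-box elements, and Dbp is among the strongest cycling transcripts of peripheral tissues. Through the day transcripts peak in the order Nr1d1, Nr1d2 and Dbp, then the Per genes, then Cry1, and then Npas2, Clock and Bmal1, so that the first and last of these sets run nearly opposite to each other. Per1 is also induced directly by glucocorticoid hormone.

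The animals were male Fischer rats, approximately 8 weeks old at the start and kept on a 12 hour light-dark cycle. Exposed rats breathed 2 ppm formaldehyde, generated from an isotope-labelled paraformaldehyde, through the nose alone while held in tubes, 6 hours daily for 7 days or for 28 days, and control rats sat in the same kind of tube with room air for as long. Nasal tissue came from the maxilloturbinate, and white blood cells from heart blood spun in cell preparation tubes. Each of the 8 groups (nose or blood, 7 or 28 days, control or exposed) had 3 arrays, 24 in all. The labels do not say that the 3 arrays came from separate rats, so the tests measure the spread between these samples, which may be technical. The labels do not state the hour at which an animal was killed, and exposure and hour of sampling cannot be told apart in these groups.

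The median log2 intensity over all probe sets was 8.25 to 8.28 on the 7 day nose arrays, 7.35 to 7.42 on the 28 day nose arrays, 7.45 to 7.5 on the 7 day blood arrays and 6.82 to 6.90 on the 28 day blood arrays. Levels were therefore compared within a tissue and day, and levels of different probe sets were not set against each other. The nose arrays held transcripts of ciliated, secretory, basal and olfactory cells, and Scgb1a1 of the secretory list was below the limit of expression. The blood arrays held T cell transcripts, with a mean over the list of 10.6 to 11.9, and 4 of the 10 olfactory genes were below the limit there. They also held red cell transcripts (list mean 12.59 to 13.82) and platelet transcripts (11.83 to 13.02). In such bulk samples fewer cells of a type and less RNA per cell cannot be told apart.

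Control elements of the clock were looked for in the 250 bases before the start of each gene, in RefSeq promoters of the rat build GRCr8. Windows were found for 9 of the 10 members. The motifs searched on both strands were the E-box CACGTG, the E'-box CACGTT, the D-box TTANGTAA, the RRE as TAGGTCA or TGGGTCA, and the CRE TGACGTCA, none of which overlapped another where they were found. Among 33469 promoters of this length 5.59% held the E-box, 4.07% the E'-box, 2.04% the D-box, 5.62% the RRE, 1.59% the CRE and 17.6% any of the 5. Nr1d1, Per2 and Tef, 3 of the 9 members, held at least 1 match, and the windows with a match are shown because these are the elements through which the clock factors act, with the matches in capitals.
Nr1d1: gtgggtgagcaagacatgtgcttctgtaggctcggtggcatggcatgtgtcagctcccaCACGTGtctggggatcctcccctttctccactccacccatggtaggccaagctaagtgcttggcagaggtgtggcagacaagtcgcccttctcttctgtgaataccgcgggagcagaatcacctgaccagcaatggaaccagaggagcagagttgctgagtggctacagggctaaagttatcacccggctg
Nr1d1, upstream start: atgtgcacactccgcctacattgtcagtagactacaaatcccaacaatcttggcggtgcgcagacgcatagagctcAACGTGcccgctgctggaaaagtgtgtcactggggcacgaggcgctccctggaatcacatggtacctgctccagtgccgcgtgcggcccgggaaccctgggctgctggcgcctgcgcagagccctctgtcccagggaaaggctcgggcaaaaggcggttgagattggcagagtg
Per2: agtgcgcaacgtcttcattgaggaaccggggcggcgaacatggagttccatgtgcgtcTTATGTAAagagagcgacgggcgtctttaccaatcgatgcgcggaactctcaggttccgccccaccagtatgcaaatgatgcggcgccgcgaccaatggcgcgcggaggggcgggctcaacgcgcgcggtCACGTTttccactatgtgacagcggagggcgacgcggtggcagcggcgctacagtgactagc
Tef: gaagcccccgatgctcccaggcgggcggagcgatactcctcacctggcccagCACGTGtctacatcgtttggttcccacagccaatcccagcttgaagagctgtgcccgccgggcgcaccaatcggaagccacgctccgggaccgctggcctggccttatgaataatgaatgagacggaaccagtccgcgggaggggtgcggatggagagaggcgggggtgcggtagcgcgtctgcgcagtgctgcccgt
Bmal1: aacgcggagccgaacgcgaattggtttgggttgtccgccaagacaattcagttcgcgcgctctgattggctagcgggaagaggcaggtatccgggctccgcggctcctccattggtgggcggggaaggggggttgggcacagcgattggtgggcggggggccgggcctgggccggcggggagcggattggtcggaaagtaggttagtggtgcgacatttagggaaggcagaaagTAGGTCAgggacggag
The Nr1d1 window at chr10:84229455-84229704 (minus strand) had an E-box that began 191 bases before the start, and the window of its upstream start at chr10:84231813-84232062 (minus strand) had an E'-box at 174 bases. The Per2 window at chr9:99496994-99497243 (minus strand) carried a D-box at 192 bases and an E'-box at 62 bases. The Tef window at chr7:115206577-115206826 (plus strand) had an E-box at 198 bases. Bmal1, the partner of CLOCK and not one of the 10 genes, is shown for contrast, since its window at chr1:176766078-176766327 (plus strand) had an RRE at 16 bases, the element that the products of Nr1d1 and Nr1d2 bind. A match describes letters in this window and says nothing of binding in these tissues.

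In the nose at 7 days the REV-ERB genes and Dbp were lower and Cry1 was higher in exposed than in control rats. Nr1d1 fell 3.79-fold, Nr1d2 fell 1.49-fold and Dbp fell 1.44-fold, and Cry1 rose 1.49-fold. In all 4 genes passed limma's test at an adjusted p under 0.05, 1 higher and 3 lower, out of 10. Over all 21910 probe sets tested 16.3% passed, 8.43% higher and 7.84% lower. The median difference was −0.24 over the members and −0.05 over all probe sets on the log2 scale.

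**Figure D1:**
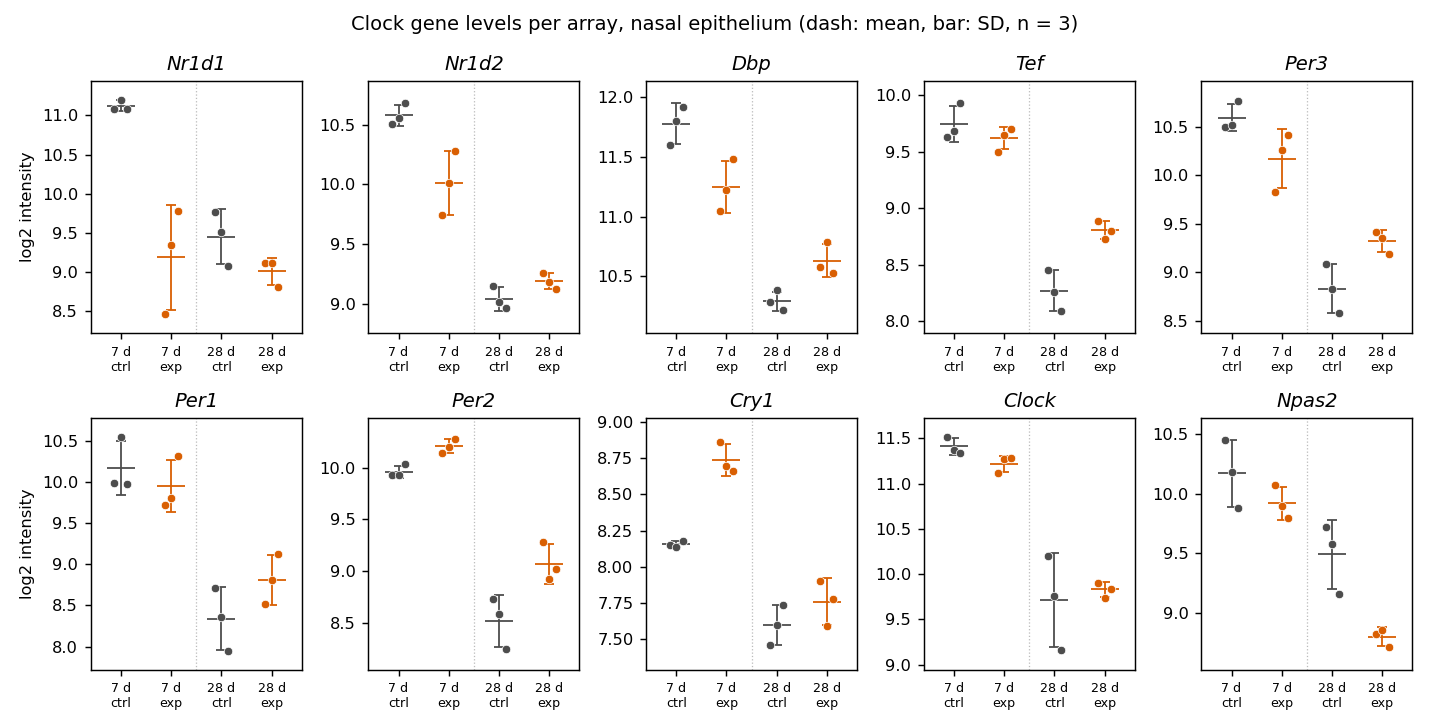
Log2 intensity of the 10 clock genes on each nose array, with control and exposed arrays at 7 and at 28 days; each point is 1 array, each dash the mean and each bar the SD of 3 arrays. At 7 days the 3 exposed arrays lay below the 3 control arrays for Nr1d1, Nr1d2, Dbp, Per3 and Clock and above them for Cry1 and Per2.

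Nr1d1, which encodes the repressor REV-ERB alpha, stood at 11.08, 11.20 and 11.08 log2 units on control replicates 1 to 3 and at 8.46, 9.34 and 9.78 on the exposed ones. The controls lay within a narrow band, the exposed arrays were all lower, and exposed replicate 1 was the lowest by a wide margin. The difference was −1.92 ± 0.28 (SE, n = 3 arrays a group; 95% interval −2.54 to −1.31, limma adjusted p = 0.00305). It stayed past the threshold when any of the 6 arrays was left out, with a size from −2.22 to −1.56.

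Nr1d2, the gene of the second REV-ERB repressor, was at 10.51, 10.56 and 10.68 in controls and at 9.74, 10.01 and 10.28 in exposed rats. The groups did not overlap, and exposed replicate 1 was again the lowest. It differed by −0.57 ± 0.12 (95% interval −0.84 to −0.31, limma adjusted p = 0.0133). Without control replicate 3 the adjusted p of limma was 0.0513, and without exposed replicate 1 it was 0.0509.

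Dbp, which encodes the D-box activator, measured 11.60, 11.80 and 11.92 in controls and 11.05, 11.22 and 11.48 after exposure. Every exposed array was below every control array, though exposed replicate 3 and control replicate 1 lay close together. The difference of −0.52 ± 0.12 (95% interval −0.80 to −0.25) had a limma adjusted p of 0.0196. The adjusted p became 0.0529 once control replicate 2 was dropped, 0.0749 for control replicate 3 and 0.0936 for exposed replicate 1, so the call rested on these arrays.

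Cry1, whose product represses CLOCK and BMAL1 and which is itself a target of REV-ERB, read 8.15, 8.14 and 8.18 in controls and 8.86, 8.70 and 8.66 in exposed rats. All exposed arrays lay above all controls, and the control arrays were nearly equal. The rise was 0.58 ± 0.10 (95% interval 0.36 to 0.80, limma adjusted p = 0.00668), and it held when each array was left out, between 0.52 and 0.62.

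The 3 Period genes, whose products join CRY in the repressive arm, did not pass the test at 7 days in the nose. Per3 was at 10.50, 10.52 and 10.76 in controls and 9.83, 10.26 and 10.41 in exposed rats, a difference of −0.43 ± 0.16 with a limma adjusted p of 0.0948. Per2 was at 9.93, 9.93 and 10.03 in controls and 10.14, 10.20 and 10.28 in exposed rats, a difference of 0.24 ± 0.13 with a limma adjusted p of 0.227. The groups did not overlap for either gene, and the values lay in opposite directions. Per1 read 9.99, 10.55 and 9.97 in controls and 9.72, 9.81 and 10.31 in exposed rats (−0.22 ± 0.24, limma adjusted p = 0.602), with overlapping groups.

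Of the activators, Clock was at 11.51, 11.37 and 11.34 in controls and 11.12, 11.27 and 11.28 in exposed rats (−0.18 ± 0.20, limma adjusted p = 0.604). Npas2, its relative, was at 10.45, 10.18 and 9.88 against 10.07, 9.90 and 9.80 (−0.25 ± 0.16, limma adjusted p = 0.355). The Clock values did not overlap and the Npas2 values did. Tef, the second D-box factor, was at 9.63, 9.68 and 9.93 in controls and 9.50, 9.65 and 9.70 in exposed rats (−0.13 ± 0.11, limma adjusted p = 0.505), also with overlap. Across the 10 genes 7 had groups that did not overlap, against 53.3% of all probe sets, and 5 had an unadjusted limma p under 0.05, against 30.4%.

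The exposed nose arrays at 7 days also differed among themselves in an ordered way. Exposed replicate 1 had the lowest value of its group for 8 members and the highest for Cry1 and Npas2. Exposed replicate 3 had the highest value for the same 8 members and the lowest for Cry1 and Npas2, and exposed replicate 2 lay between them for all 10. In controls, replicate 3 was the highest for Per2, Per3, Cry1, Dbp, Tef and Nr1d2. Replicates are numbered by label and have no order in time here.

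**Figure D2:**
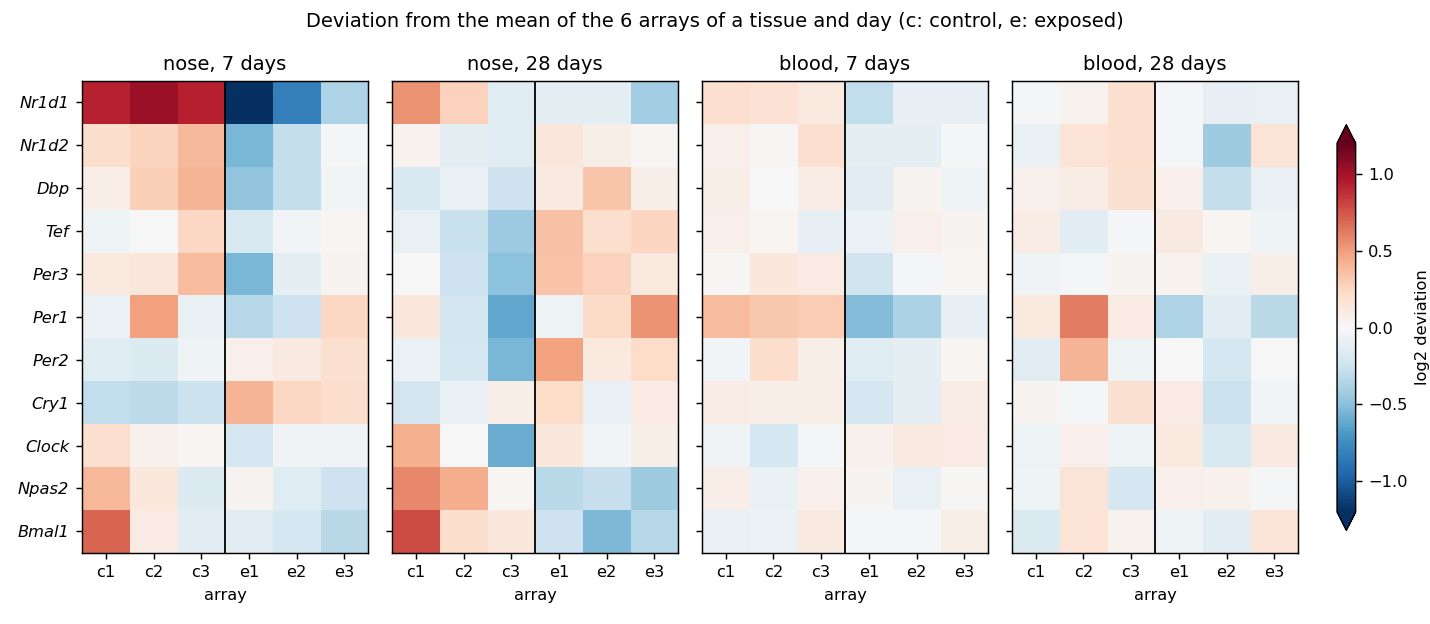
Deviation of each of the 10 clock genes, and of Bmal1, on each array from the mean of the 6 arrays of its tissue and day, in log2 units, as a heat map with genes in rows and arrays in columns; the colour scale is cut at both ends. On the exposed nose arrays of 7 days Nr1d1, Nr1d2 and Dbp lay below the mean and Cry1 above it, and replicate 1 stood farthest out for Nr1d1.

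Cell type transcripts differed between the same arrays. The mean of the olfactory neuron list (10 genes) ran from 8.84 to 10.21 on the control nose arrays of 7 days. On the exposed ones it ran from 11.41 to 11.78. All 10 of its genes read higher, and 5 passed the test as higher and 0 as lower. Over all probe sets 8.43% passed as higher and 7.84% as lower. The mean of the endothelial list (5 genes) was 9.03 to 9.37 in controls and 8.26 to 8.60 in exposed rats, and 5 of its 5 genes passed as lower. The red cell list (3 genes) was at 9.44 to 9.56 in controls and 8.08 to 9.01 in exposed rats, and all 3 passed as lower. Some genes of the leukocyte, T cell, monocyte, fibroblast and basal lists also passed as lower. Of the ciliated list 2 of 5 genes, and of the platelet list 1 of 3, passed as higher. Exposed replicate 1, the lowest array for Nr1d1, Nr1d2 and Dbp, was the highest for the olfactory list. It was the lowest for the endothelial and red cell lists. The part of tissue composition in the clock gene differences was not tested.

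At 28 days in the nose no clock gene passed limma's test, and the values of several lay in other directions than at 7 days. Tef, Per2, Per3 and Dbp read higher in every exposed array than in any control array, and Npas2 read lower. Over all probe sets 0.00456% passed. At an unadjusted limma p under 0.05 there were 5 of 10 clock genes against 15.4% of all probe sets, and 5 of 10 had groups that did not overlap against 16.2%. The median difference was 0.24 over the members and 0.01 over all probe sets.

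Tef stood at 8.45, 8.26 and 8.09 in controls and 8.89, 8.73 and 8.80 in exposed rats. The difference of 0.54 ± 0.11 (95% interval 0.29 to 0.78) had a limma adjusted p of 0.106. Per2 stood at 8.73, 8.59 and 8.25 in controls and 9.28, 8.92 and 9.02 in exposed rats, a difference of 0.55 ± 0.13 (95% interval 0.27 to 0.83, limma adjusted p = 0.116). For both genes control replicate 3 was the lowest array of the 6. Without control replicate 1, when many more probe sets passed (1081 over the array), Tef had a limma adjusted p of 0.0181 and Per2 of 0.0225.

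Npas2 read 9.72, 9.58 and 9.16 in controls and 8.82, 8.86 and 8.71 in exposed rats. The exposed arrays were tightly grouped below all controls. It differed by −0.69 ± 0.16 (95% interval −1.05 to −0.33), with a limma adjusted p of 0.117.

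Per3 was at 9.08, 8.82 and 8.58 in controls and 9.41, 9.35 and 9.19 in exposed rats (0.49 ± 0.16, limma adjusted p = 0.196). Dbp was at 10.28, 10.38 and 10.22 against 10.58, 10.79 and 10.53 (0.34 ± 0.12, limma adjusted p = 0.235). Neither gene had overlapping groups. Per1 was at 8.71, 8.36 and 7.95 in controls and 8.52, 8.81 and 9.12 in exposed rats (0.47 ± 0.24, limma adjusted p = 0.369). The controls of Per1 spread widely and overlapped the exposed arrays.

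The remaining 4 members had overlapping groups at 28 days. Nr1d1 read 9.77, 9.51 and 9.08 in controls and 9.11, 9.11 and 8.81 in exposed rats (−0.44 ± 0.28, limma adjusted p = 0.471). Nr1d2 read 9.15, 9.01 and 8.96 against 9.26, 9.18 and 9.12, a difference of 0.15. Cry1 read 7.46, 7.60 and 7.74 against 7.90, 7.59 and 7.78, also a difference of 0.15. Clock, at 10.20, 9.76 and 9.16 in controls and 9.90, 9.74 and 9.84 in exposed rats, had the widest control spread among these 4. Its difference was 0.12 over all arrays and −0.16 without control replicate 3.

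Control replicate 3 had the lowest value of its group for 9 of the 10 members and the highest for Cry1, and control replicate 1 the highest for 8. The olfactory list was at 7.37, 9.82 and 9.59 on these controls and at 9.97, 10.27 and 9.88 on the exposed arrays. It was control replicate 1, and not replicate 3, that stood apart in that list.

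**Figure D3:**
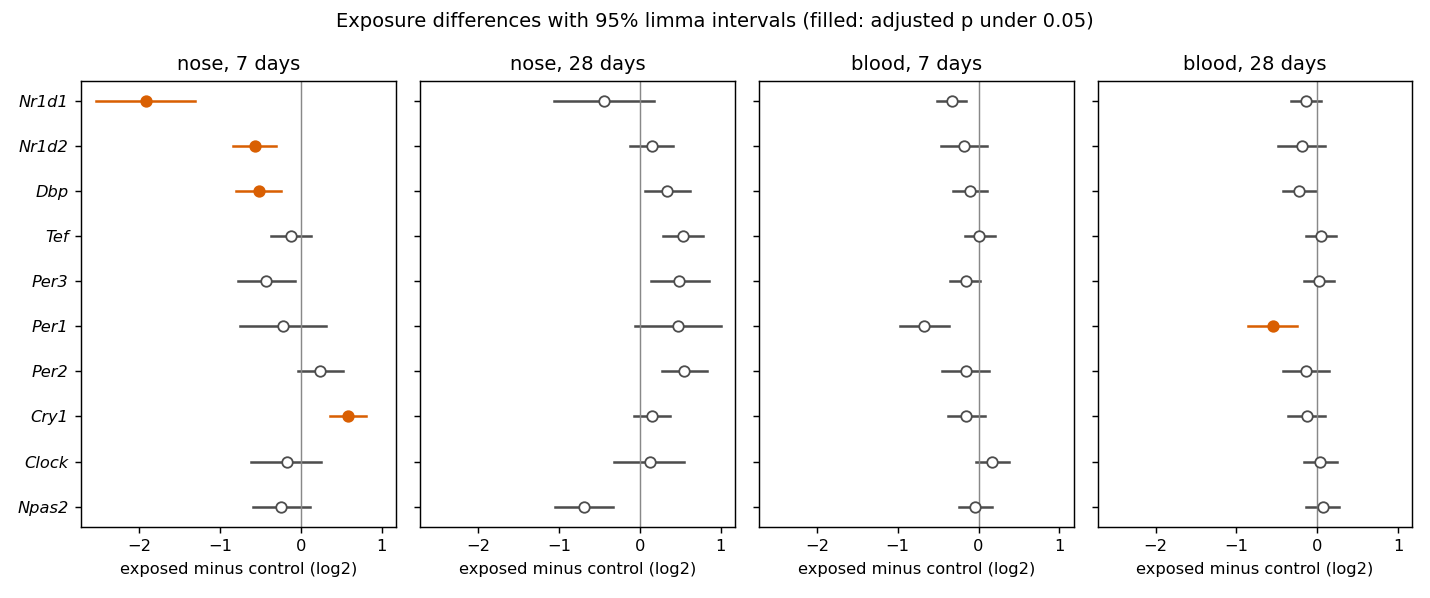
Difference between exposed and control arrays (log2 units) for the 10 clock genes in nose and blood at 7 and 28 days; points are estimates from 3 arrays a group, bars are 95% intervals, and filled points passed limma's adjusted p under 0.05. The nose values at 7 days run from −1.92 for Nr1d1 to 0.58 for Cry1, while the blood values lie nearer 0 except for Per1.

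The change of the exposure difference between 7 and 28 days was tested as an interaction in the nose. No clock gene passed, against 0.1% of all probe sets, and 6 of 10 had an unadjusted limma p under 0.05, against 13.6%. The values were 0.87 ± 0.18 for Dbp (limma adjusted p = 0.0891), 0.66 ± 0.16 for Tef and 0.72 ± 0.17 for Nr1d2 (both 0.145). They were 0.92 ± 0.23 for Per3 (limma adjusted p = 0.157), 1.48 ± 0.40 for Nr1d1 (0.194) and −0.42 ± 0.14 for Cry1 (0.293). So the opposite signs of Dbp, Per3, Tef and Nr1d2 at the 2 times were not a difference past the threshold in this fit. With the replicate number as a block, a pairing that no label states, Dbp passed (limma adjusted p = 0.0331). With the spread estimated over all 24 arrays 5 genes passed, and without nose 28 day control replicate 1 there were 6. The 0.1% of all probe sets is not the share for these fits, and their own shares are not given here. Nothing particular to the clock genes can be read from these counts. Over all probe sets 22 passed in the main fit, 1 to 471 under the other settings and 1 to 2640 with 1 array left out.

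A contrast between an early and a late arm of chosen clock genes was built for each array. It was the mean deviation of Dbp, Tef, Per3, Nr1d1 and Nr1d2 minus the mean deviation of Npas2, Clock and Cry1, each from the mean of the 6 arrays of its tissue and day. Per3 was placed in the early arm and Cry1 in the late arm, though both peak between the sets that run nearly opposite. Per1 and Per2 were in neither arm. The contrast is therefore not a position along the known order of peaks. It is a description and carries no test. In the nose at 7 days it was 0.16, 0.39 and 0.61 on controls and −0.77, −0.33 and −0.05 on exposed arrays. In the nose at 28 days it was −0.20, −0.21 and −0.13 on controls and 0.16, 0.28 and 0.09 on exposed arrays. The groups did not overlap on either day, and the exposed arrays were on the low side at 7 days (difference −0.77) and on the high side at 28 days (difference 0.36).

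In blood the contrast was much smaller. At 7 days it was 0.04, 0.14 and 0.04 on controls and −0.13, 0.01 and −0.09 on exposed arrays, a difference of −0.15. At 28 days it was 0.03, −0.04 and 0.14 on controls and −0.06, −0.04 and −0.02 on exposed arrays, a difference of −0.09 with overlapping groups. The nose differences were larger on both days, and this was not tested. With Bmal1 added to the second arm the nose contrast at 7 days ran from 0.01 to 0.60 on controls and from −0.71 to 0.03 on exposed arrays, so that the groups then overlapped, and the nose difference at 28 days became 0.51.

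**Figure D4:**
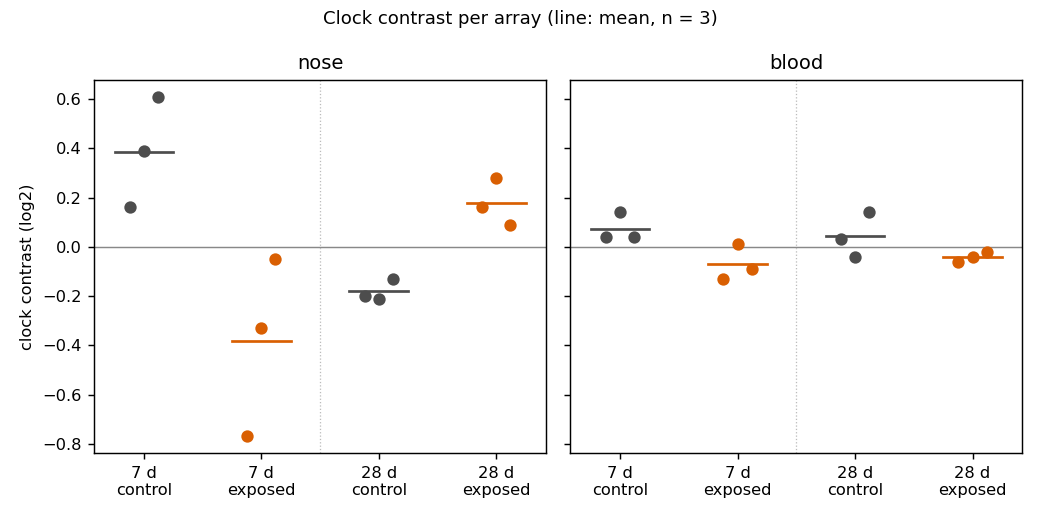
Clock contrast of each array in log2 units, by tissue, day and treatment; each point is 1 array and each line the mean of 3. Exposed nose arrays lay between −0.77 and −0.05 at 7 days, below all controls, and between 0.09 and 0.28 at 28 days, above all controls.

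The pattern of single genes did not follow the 2 arms throughout. At 7 days in the nose Nr1d1, Nr1d2, Dbp and Cry1 moved as the contrast has them, whereas Clock and Npas2 read lower by 0.18 and 0.25, and Bmal1 by 0.45 (limma adjusted p = 0.179), on the same side as Dbp. At 28 days Dbp, Tef, Per3 and Nr1d2 read higher and Npas2 lower, as the contrast has them. Nr1d1, however, read lower by 0.44, on the side of Npas2. Cry1 and Clock read higher by 0.15 and 0.12, on the side of Dbp. The part of the hour of sampling in these values was not tested.

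In white blood cells Per1 was the clock gene with the largest difference, lower after exposure at both times. At 28 days Per1 fell 1.47-fold and was the 1 of 10 clock genes that passed limma's test, against 5.27% of all probe sets, 3.95% higher and 1.31% lower. At 7 days no member passed, against 0.475% of all probe sets, although the Per1 difference was a little larger. At an unadjusted limma p under 0.05 there were 2 of 10 members at 7 days, Per1 and Nr1d1, against 15.1% of all probe sets, and 2 of 10 at 28 days, Per1 and Dbp, against 17.9%.

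**Figure D5:**
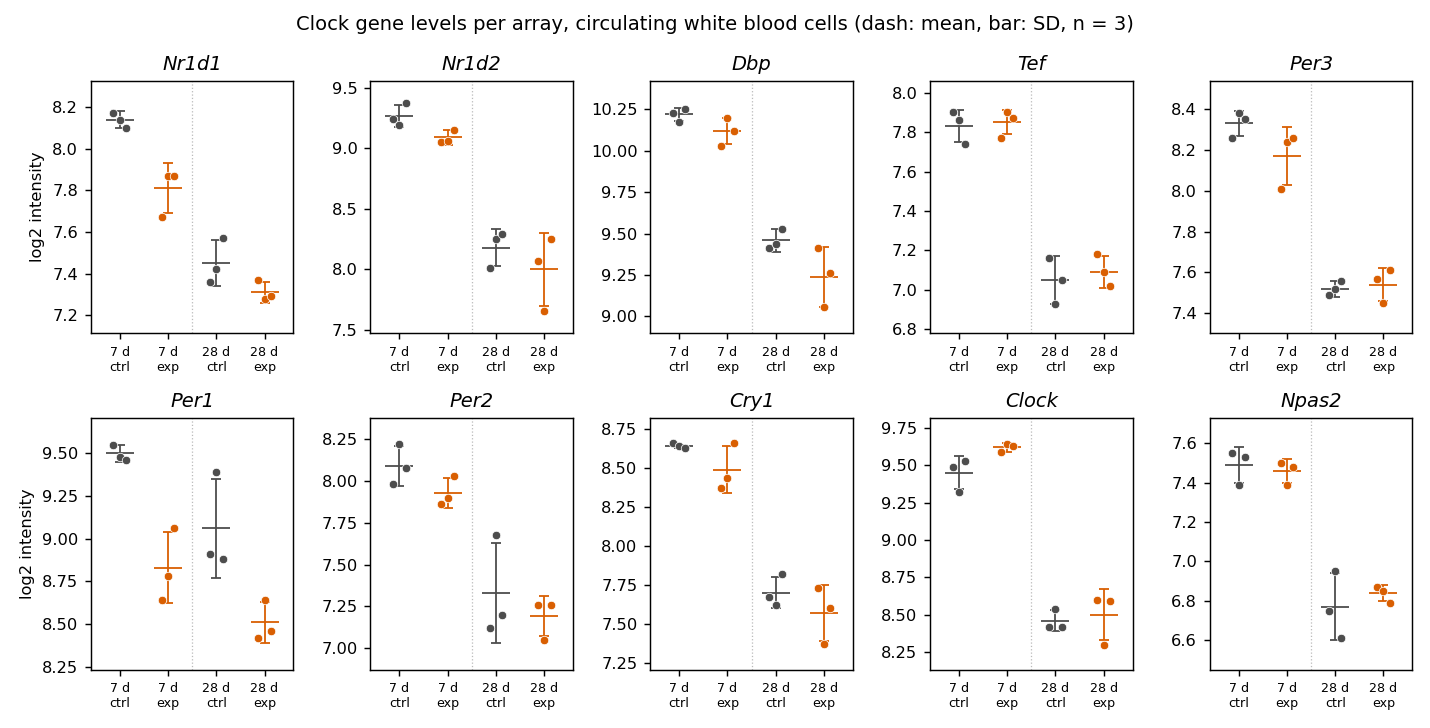
Log2 intensity of the 10 clock genes on each blood array, with control and exposed arrays at 7 and at 28 days; each point is 1 array, each dash the mean and each bar the SD of 3 arrays. Per1 lay lower on all exposed arrays than on any control array of the same day, and most of the other genes had overlapping groups at 28 days.

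Per1, an early-responding repressor gene that glucocorticoids induce, stood at 9.55, 9.48 and 9.46 in blood controls at 7 days and at 8.64, 8.78 and 9.06 in exposed rats. The groups were clearly apart. The difference was −0.67 ± 0.14 (95% interval −0.97 to −0.36, a ratio of 1.59) with a limma adjusted p of 0.0601. It passed with the expression limit at the median (limma adjusted p = 0.0478), after quantile normalization (0.0486) and with only the 6 arrays compared (0.0344).

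At 28 days Per1 read 8.91, 9.39 and 8.88 in controls and 8.42, 8.64 and 8.46 in exposed rats. Control replicate 2 was the highest, and all exposed arrays lay below all controls. The difference was −0.55 ± 0.14 (95% interval −0.86 to −0.25, limma adjusted p = 0.0408). It was −0.39 (limma adjusted p = 0.0983) without control replicate 2, and the call was also lost without exposed replicate 1 (0.0955), 2 (0.0575) or 3 (0.103). It was lost as well with no expression limit (limma adjusted p = 0.0541), after quantile normalization (0.0662), with the replicate block (0.0615) and with only the 6 arrays compared (0.159).

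Markers of neutrophils also differed between the arrays of these groups. The mean of the neutrophil list (4 genes) was 7.81, 10.65 and 7.69 on the blood controls of 28 days, with replicate 2 far above the others, and 7.45, 7.00 and 6.30 on the exposed arrays. At 7 days it was 8.58, 10.19 and 8.68 in controls and 7.76, 8.97 and 8.10 in exposed rats. None of the 4 genes passed the test on either day, though all 4 read lower on both, with medians of −0.88 at 7 days and −1.82 at 28 days. At an unadjusted limma p under 0.05 there were 0 of 4 at 7 days and 4 of 4 at 28 days. Over all probe sets the shares were 15.1% and 17.9%. Control replicate 2 was highest for the list and for Per1 at 28 days. On the 7 day controls the list ran from 8.58 to 10.19, while Per1 ran from 9.46 to 9.55. Of the other lists, 3 of 4 natural killer cell genes, 2 of 3 platelet genes and 1 of 5 endothelial genes passed as higher at 28 days. Over all probe sets 3.95% passed as higher. The part of cell composition in the Per1 difference was not tested.

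The other members in blood at 7 days were close to their controls. Nr1d1 was at 8.17, 8.14 and 8.10 in controls and 7.67, 7.87 and 7.87 in exposed rats (−0.33 ± 0.08, limma adjusted p = 0.0926), with no overlap. Nr1d2 was at 9.24, 9.19 and 9.37 against 9.05, 9.06 and 9.15, a difference of −0.18. Both REV-ERB genes thus read lower on every exposed array, as in the nose at 7 days, without passing the test. Clock was at 9.49, 9.32 and 9.53 against 9.59, 9.64 and 9.63, a difference of 0.17. Per3, at 8.26, 8.38 and 8.35 against 8.01, 8.24 and 8.26, differed by −0.16 and lay just apart from its controls. With these genes 5 of 10 members had groups that did not overlap, against 29.9% of all probe sets.

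Groups of the remaining 5 members overlapped in blood at 7 days. Per2 ran from 7.98 to 8.22 in controls and from 7.86 to 8.03 in exposed rats, and Cry1 from 8.63 to 8.66 and from 8.37 to 8.66. Dbp ran from 10.17 to 10.25 in controls and from 10.03 to 10.20 in exposed rats. Npas2 differed by −0.04 and Tef by 0.01. The level of Tef had no settled direction, as its difference was −0.02 after quantile normalization or median centring.

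At 28 days in blood the 9 members other than Per1 overlapped, and 1 of 10 had groups apart against 17.8% of all probe sets. Dbp, at 9.41, 9.44 and 9.53 in controls and 9.41, 9.06 and 9.26 in exposed rats, differed by −0.22 ± 0.09 with a limma adjusted p of 0.247. Nr1d1 read 7.36, 7.42 and 7.57 against 7.37, 7.28 and 7.29, a difference of −0.14. Exposed replicate 2 had the lowest value of its group for 7 members. The differences of the others ran from −0.19 for Nr1d2 through −0.14 for Per2 and −0.13 for Cry1 to 0.07 for Npas2, with Per3 at 0.02, Clock at 0.03 and Tef at 0.05. The exposure difference did not change between 7 and 28 days beyond the test for any member in blood, where 0% of all probe sets passed and 11.5% (2528) had an unadjusted limma p under 0.05, while 0 members had.

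The exposure differences of the 2 tissues were compared within each day, over the 20096 probe sets measured in both. At 7 days 2 of 10 clock genes passed, against 10.8% of all probe sets (5.1% higher and 5.65% lower in nose), and 5 had an unadjusted limma p under 0.05, against 26.9%. Nr1d1 was more strongly reduced in nose, by −1.92 against −0.33 in blood, and the difference between tissues was −1.59 ± 0.30 (limma adjusted p = 0.00335). Cry1 was higher after exposure in nose (0.58) and read lower in blood (−0.15), a difference of 0.73 ± 0.15 (limma adjusted p = 0.00472). Both kept the call in each of the 12 fits that left out 1 array.

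At 28 days 5 of 10 clock genes passed between tissues, against 5.1% of all probe sets (2% higher and 3.11% lower in nose), and 6 had an unadjusted limma p under 0.05, against 21.2%. Npas2 differed by −0.76 ± 0.19 (limma adjusted p = 0.0243), with a nose difference of −0.69 and a blood difference of 0.07. Per2 differed by 0.69 ± 0.19 (limma adjusted p = 0.0391) and Per1 by 1.02 ± 0.29 (0.0414). For Per1 the nose value was 0.47 and the blood value −0.55. Dbp differed by 0.56 ± 0.16 (limma adjusted p = 0.0422) and Tef by 0.49 ± 0.14 (0.0465).

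These 5 calls at 28 days were close to the threshold. Of 12 fits that left out 1 array the call was lost in 3 for Npas2, 6 for Per2, 8 for Per1, 9 for Dbp and 9 for Tef. None of the 5 passed when only the 12 arrays of the day were used, and 2 of the 10 members passed with the replicate block. With single arrays left out the size for Per1 ran from 0.83 to 1.21.

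The wider clock machinery was followed through a list of 30 other clock genes and clock-controlled genes, of which 23 had a named probe set. In the nose at 7 days 1 rose, 3 fell and 19 did not pass, with a median of −0.11. The 4 of 23 that passed were a share near the 16.3% of all probe sets. Bhlhe40, whose product competes for E-boxes, was at 11.80, 11.91 and 11.69 in controls and 10.63, 11.26 and 11.25 in exposed rats, and fell by 0.75 ± 0.17 (limma adjusted p = 0.0177). All exposed arrays of Bhlhe40 were below all controls, with replicate 1 again the lowest. Usp2, a clock-driven deubiquitinase, fell by 0.42 (limma adjusted p = 0.031) and Id2, an inhibitor of helix-loop-helix factors, by 0.39 (0.0411). Btrc, which encodes an F-box protein that targets PER proteins for breakdown, rose by 0.32 ± 0.10 (limma adjusted p = 0.0477). The calls were lost in 3 of 6 fits that left out an array for Bhlhe40, in 5 for Usp2 and Id2 and in 6 for Btrc.

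None of the 23 passed in the nose at 28 days (median 0.09). There 6 of the 23 had an unadjusted limma p under 0.05, against 15.4% of all probe sets. The smallest of these belonged to Bmal1, at 8.73, 8.16 and 8.08 in controls and 7.70, 7.41 and 7.61 in exposed rats (−0.75 ± 0.21, limma adjusted p = 0.154). Bmal1 and Npas2, which are both known targets of the REV-ERB repressors, both read lower on every exposed array at 28 days. Cry1 and Clock, also named above as targets, read higher by 0.15 and 0.12, with overlapping groups. The repressor genes themselves differed by −0.44 for Nr1d1 and 0.15 for Nr1d2. A link between these values was not tested. Bmal2 differed by −0.29 (limma adjusted p = 0.214) and Cry2 by 0.32 (0.232).

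In blood 0 of 22 tested genes of this list passed at 7 days (median −0.02). There 4 had an unadjusted limma p under 0.05, against 15.1% of all probe sets. Wee1, a cell cycle kinase under clock control, was the foremost with a difference of 0.39. Btrc differed by −0.35 and Csnk1d, the casein kinase that phosphorylates PER proteins, by −0.34. At 28 days 1 of 22 passed (median −0.10), against 5.27% of all probe sets. Cry2, the relative of Cry1, was at 8.69, 8.64 and 8.74 in controls and 8.43, 8.27 and 8.36 in exposed rats, and fell by 0.33 ± 0.09 (limma adjusted p = 0.0455). That call was lost in 5 of 6 fits that left out an array.

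Since Per1 answers to glucocorticoids, 12 glucocorticoid-inducible genes were counted beside it. In the nose at 7 days 1 rose and 2 fell, and the median of the list was −0.05. Over all probe sets 8.43% passed as higher and 7.84% as lower. Zbtb16, a zinc finger repressor, was at 9.42, 10.09 and 9.42 in controls and 8.82, 8.53 and 8.93 in exposed rats, and fell by 0.88 ± 0.18 (limma adjusted p = 0.0116). Klf9, a Krüppel-like factor, fell by 0.73 ± 0.22 (limma adjusted p = 0.0456). Fkbp5, a co-chaperone of the glucocorticoid receptor, rose by 0.61 ± 0.18 (limma adjusted p = 0.0454), so the called genes did not share a direction. Klf9 lost its call in all 6 fits without an array and Fkbp5 in 4.

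None of the 12 passed in the nose at 28 days, or in blood at 7 or 28 days, by limma. In these comparisons 2, 1 and 5 of them had an unadjusted limma p under 0.05. Over all probe sets the shares were 15.4%, 15.1% and 17.9%. In the nose at 28 days the smallest p belonged to Tsc22d3, which encodes the glucocorticoid-induced leucine zipper protein, with a difference of 0.34 (limma adjusted p = 0.152). Fkbp5 followed with 0.62 (limma adjusted p = 0.171) and Zbtb16 with 0.28 (0.471), and the median of the list was 0.13. In blood at 28 days, where Per1 fell, 10 of the 12 read lower in exposed rats, with a median of −0.16. The median over all probe sets was −0.02. Dusp1, a phosphatase of stress signalling, was at 10.55, 12.37 and 10.16 in controls and 9.86, 9.86 and 9.11 in exposed rats (−1.42 ± 0.45, limma adjusted p = 0.0989). Its highest array was control replicate 2, the array on which Per1 and the neutrophil list were also highest. Nfkbia, the inhibitor of NF-kappaB, differed by −0.64 and Ddit4, an inhibitor of mTOR signalling, by −0.41. At 7 days in blood, where Per1 read lower as well, the median of the list was 0.06. Ddit4 read higher there, by 0.52 (limma adjusted p = 0.144), and so did Nfkbia, by 0.29, on the other side from 28 days. Mt2A, a metallothionein gene, differed by 0.20 (limma adjusted p = 0.39) and Fkbp5 by 0.21 (0.522).

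Control arrays of 28 days were compared with those of 7 days, as the 2 sets were collected apart. All 10 clock genes were lower at 28 days in both tissues, and passed the test. Of all probe sets 91.4% passed in nose, 90.4% lower and 1.07% higher, and 89% passed in blood, 88.6% lower and 0.393% higher. The median over all probe sets was −0.99 in nose and −0.69 in blood, so that the arrays of the 2 times were on different scales. Against these the median of the members was −1.51 in nose and −0.78 in blood. After quantile normalization, which gives all arrays 1 distribution, 9 members passed in nose. Over all probe sets the nose count was 20033 in the main fit and ran from 6522 to 24842 under the other settings. The 91.4% above therefore need not be the share after quantile normalization, and that share is not given here. Nothing particular to the clock genes can be read from the count of members after it. Dbp (−0.46), Tef (−0.38), Per1 (−0.73), Per2 (−0.33), Per3 (−0.63), Nr1d2 (−0.40) and Clock (−0.61) were lower at 28 days and Cry1 (0.36) and Npas2 (0.44) higher. Nr1d1 was at −0.55 with a limma adjusted p of 0.119. No member passed in blood after quantile normalization, where the count over all probe sets ran from 5823 to 24245 under the other settings. After median centring Npas2 was at 0.20 in nose, with a limma adjusted p of 0.366.

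Dbp was set against all other named probe sets of a tissue, after the mean of each day was removed, to find the genes whose values ran most like its own over the 12 arrays. These correlations are descriptive, and the arrays share treatment and tissue make-up. In nose, of 12915 probe sets, Wdr25 had a Pearson r of 0.90, Nr1d2 0.898, Npr3 0.893, Itpripl2 0.886 and Churc1 0.88. Per3 followed at rank 6 (0.873) and Engase after it (0.872). Nr1d1 had 0.691, Tef 0.664, Per1 0.571 and Per2 0.167. Of the second arm Cry1 had −0.641 and Npas2 −0.274, while Clock had 0.315, on the side of Dbp. Bmal1 had −0.208.

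In blood the genes most like Dbp were Gps2 (0.979), Ccdc97 (0.973), Snx20 (0.965), Ddx41 (0.963) and Fcmr (0.956), of 12404 probe sets, and none of these was a clock gene. The nearest members were Cry1 at 0.805 (rank 564), Nr1d2 at 0.777 and Nr1d1 at 0.672. Cry1 thus lay on the same side as Dbp in blood and on the other side in nose.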

How the data were processed

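Messenger RNA was measured on Affymetrix arrays. The authors deposited 1 normalized intensity per probe set and array, on a linear scale, per the labels. The submitters' processing notes name Partek. How the values were normalized is not given in the sources used here. Their log2 was taken and no other normalization was added. Gene names came from the platform's table, in which 15310 probe sets carried 1 symbol, 323 several and 13581 were not listed. The dimmest probe sets of a tissue, with a mean under its percentile 25 (log2 6.61 in nose and 5.96 in blood), were left out, which left 21910 per tissue and 20096 shared by both tissues.

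Models with 1 mean per group were fitted with limma 3.58.1 (R 4.3.3), on 12 arrays where a comparison lay within a tissue and on 24 arrays where it set tissues against each other. All tests were two-sided, with Benjamini-Hochberg adjustment over all probe sets kept and a threshold of 0.05. Groups and replicate numbers came from the sample titles. Residuals of same-numbered control and exposed arrays correlated at 0.154 to 0.247 in nose at 28 days. For same-numbered arrays of the other groups r ran from −0.348 to 0.07. Differently numbered arrays of the 28 day nose ran from −0.453 to 0.205, so the residuals do not show that the numbers pair arrays. No label states a pairing, and the replicate block was fitted as an alternative only. With 3 arrays in each group their number sets the precision. On simulated data 59.1% of 1.5-fold and 81.2% of 2-fold changes were recovered for nose at 7 days, with 73% and 87.5% for blood at 28 days. For the nose effect between days 22.7% of 1.5-fold and 71.6% of 2-fold changes were recovered. For nose minus blood 22.4% of 1.5-fold changes were recovered at 7 days and 29.9% at 28 days.

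The 10 genes and the lists were chosen with earlier results of these data known. All 10 genes are named, other clock and glucocorticoid-inducible genes where they passed or, where none did, the 3 with the smallest p. Alternatives were other expression limits, quantile normalization, median centring, a trended robust prior, the replicate block, fewer or more arrays in the fit, the mean of a gene's probe sets and leaving out each array; the contrast with Bmal1 and its own alternatives were added after the data were seen. Promoters are from RefSeq, and no protein sequence was used here.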

Additional observations from a re-analysis of the deposited data

Results flagged for a closer look

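In 7 cases the exposure difference of a clock gene differed between nose and blood by a direct test of that difference (limma over all 24 arrays), which is what marked them. At 7 days these were Nr1d1, with a nose minus blood difference of −1.59 on the log2 scale, and Cry1, with 0.73. At 28 days they were Per1 (1.02), Per2 (0.69), Npas2 (−0.76), Dbp (0.56) and Tef (0.49). The controls of each tissue enter these tests, and the nose and blood arrays were not stated to come from the same rats. What set the tissues apart was not tested.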

How the results depend on the processing

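Over 1955 single-gene comparisons under other settings 1760 kept direction and side of the threshold, 132 lost the call, 22 gained it and 41 changed sign. The Nr1d1 and Cry1 calls of the 7 day nose, and of nose minus blood at 7 days, held when any array was left out. Counts of clock genes past the threshold moved as follows. In blood at 7 days 1 passed with the expression limit at the median, after quantile normalization and with only the arrays compared. In blood at 28 days 0 passed with no limit, after quantile normalization, with the replicate block and with only the arrays compared. For the change of the nose effect between days 1 passed with the replicate block and 5 over all 24 arrays. For nose minus blood 4 passed at 7 days with only the arrays of the day, and at 28 days 1 with no limit, 1 after median centring, 2 with the replicate block and 0 with only the arrays of the day. In blood controls across days 0 passed after quantile normalization and 3 after median centring. The replicate block changed no other count of members past the threshold by over 1.5 times. The contrast of the nose at 28 days was 0.51 with Bmal1. With an array left out the counts ran from 2 to 4 (nose, 7 days), 0 to 2 (nose, 28 days), 0 to 1 (blood, 28 days), 0 to 6 (nose effect between days), 2 to 3 (nose minus blood, 7 days) and 0 to 6 (nose minus blood, 28 days). Counts over all probe sets moved as well, for the nose effect between days from 1 to 471 under the other settings and from 1 to 2640 with an array left out. The cause was not tested.

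Signs turned for Cry1 (0.36 and 0.33) and Npas2 (0.44 and 0.20) in nose controls across days after quantile normalization and median centring. In blood controls they turned for Per1 (0.37 and 0.16) under both, and for Dbp (0.054) and Nr1d1 (0.0099) after quantile normalization. The change of the blood effect turned for Nr1d2 (0.045 and 0.022), and Tef in blood at 7 days was −0.02 under both. With an array left out, differences that crossed 0 ran from −0.16 to 0.36 for Clock in nose at 28 days, from −0.19 to 0.33 for Clock in nose minus blood at 28 days, and in blood at 28 days from −0.016 to 0.13 for Clock, −0.25 to 0.032 for Per2, −0.012 to 0.065 for Per3, −0.016 to 0.16 for Npas2 and −0.01 to 0.11 for Tef. Tef in blood at 7 days ran from −0.033 to 0.048. The change of the blood effect ran from −0.089 to 0.19 for Per2, −0.057 to 0.12 for Cry1, −0.022 to 0.095 for Tef and −0.14 to 0.15 for Nr1d2.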
